A study of Mus musculus with 6 samples.

Results

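Mouse iPS-derived cultures that received NRG-1 in addition to DMSO were compared with cultures that received DMSO alone, in 2 of the 6 array libraries of the series. Both libraries came from iPS cells of strain DBA/2J, labelled female, collected at day 7 of cardiac differentiation. Before treatment the cells had been grown for 5 days in suspension as embryoid bodies, which are free-floating clusters in which pluripotent cells begin to differentiate. The bodies were then moved to gelatin-coated dishes and given 1% DMSO, or 1% DMSO with NRG-1 protein at 100 ng/ml. The shared history also includes growth on feeder cells with serum and LIF before differentiation. The labels name no sorting or purification step, so each library is treated here as a whole culture of mixed cells. Values are also quoted from a day 7 culture given NRG-1 at 100 ng/ml without DMSO, after 5 days as embryoid bodies. It is called NRG-1 alone. The undifferentiated iPS library, which received neither agent, is a further reference. Each condition has 1 library, so differences stand without replicates and without a test. Values are log2 RMA levels on Affymetrix Mouse Gene 2.0 ST arrays, which read many probes along each transcript, and a difference is the level with DMSO and NRG-1 minus the level with DMSO.

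NRG-1 (neuregulin 1) is a secreted growth factor of the epidermal growth factor family. It binds the receptors ERBB3 and ERBB4, which pair with ERBB2 and pass the signal to the RAS-ERK and PI3K-AKT pathways. In the developing heart NRG-1 comes mainly from the endocardium and acts on the myocardium, where it is needed for trabeculation, and it can drive heart muscle cells to divide. DMSO is a solvent that has long been used to start differentiation of pluripotent and carcinoma cells.

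The libraries were close to each other. Across 22180 genes their levels correlated at r = 0.993, against 0.986 between DMSO and NRG-1 alone, where each value shares a library with the other and genes are not independent. The SD of the difference over all genes was 0.245, and it went from 0.306 for genes with a mean level below 4 to 0.132 for genes at 10 or above. Disagreement between probe sets was read from genes with exactly 2 of them, each reaching 5.20 in at least 1 library. The SD of the gap between their differences, divided by the square root of 2, was 0.197 over 451 pairs. It is an SD per probe set. Olfactory and vomeronasal receptor genes, which serve as a reading of noise at low signal, had an SD of 0.343 over 1390 genes. Counts by fold use the 13198 genes whose higher level was at least 5.20, the median of all values. Of these, 96 (0.727%) were at least 1.5-fold higher with NRG-1 added and 101 (0.765%) at least 1.5-fold lower. At least 2-fold higher were 6 genes (0.0455%), and at least 2-fold lower were 7 (0.053%). Without any filter, 10737 of 22180 genes (48.4%) had a difference above 0, and among genes with a mean level from 6 to 9 the share was 51.5%. RMA compresses ratios, so folds are likely smaller here than in the RNA.

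**Figure D1:**
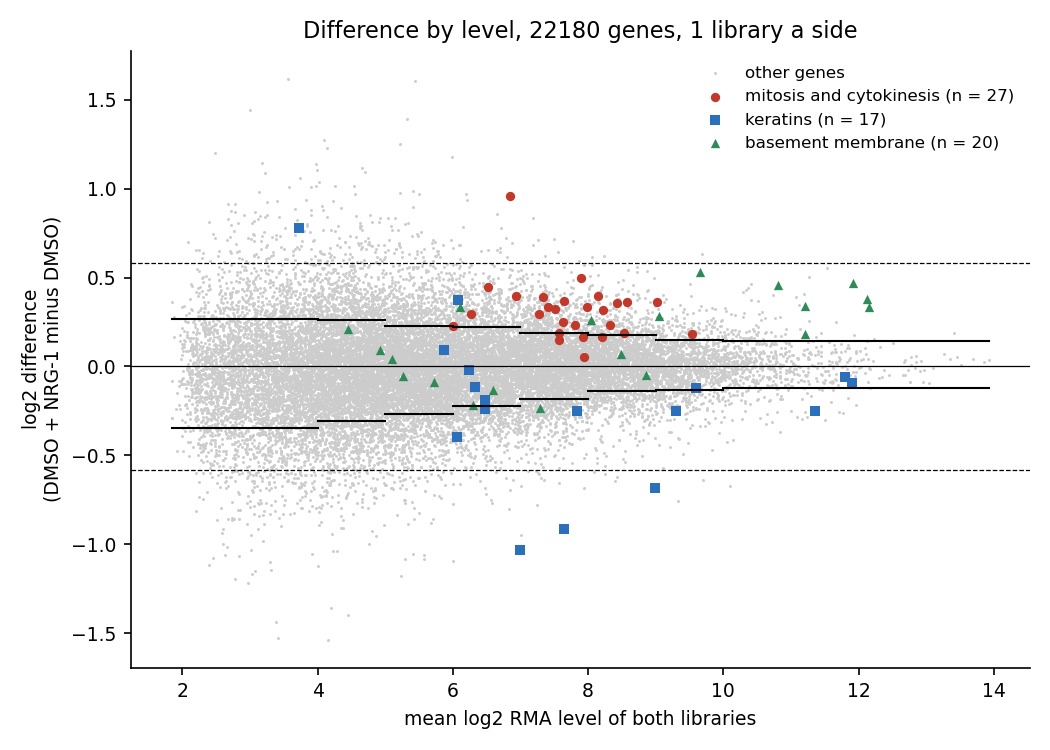
Difference between the library with DMSO and NRG-1 and the library with DMSO (y axis, log2) against the mean level of both (x axis, log2 RMA), with 1 point per gene. Solid steps mark the median plus and minus 1 SD in each band of levels, and dashed lines mark 1.5-fold. The mitosis genes lie above 0, 3 keratins lie far below it, and the brightest basement membrane genes lie above the SD band.

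The most uniform shift was in genes of cell division. All 27 measured genes of the mitosis and cytokinesis list were higher with NRG-1 added, by 0.05 for Cdc20 to 0.96 for Ttk, with a median of 0.32. The median of all genes was -0.01. Of the mitosis genes, 1 (Ttk) was past 1.5-fold, so the shift was small for each gene and shared by the list. DNA replication genes followed, with 23 of 27 above 0, a median of 0.21 and none past 1.5-fold. G1 cyclins, their kinases and inhibitors did not share it, with 3 of 17 above 0 and a median of -0.08.

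Ttk, the spindle checkpoint kinase, stood at 6.37 with DMSO and 7.33 with DMSO and NRG-1. It was the largest difference of any list member in cell division. Haspin, the kinase that marks histone H3 at mitotic centromeres and is on no list, went from 5.02 to 5.99. Haspin passed the filter only through the library where it was higher, so its direction was fixed by the filter. Kif11, the motor that separates the spindle poles, was at 7.65 and 8.15. Birc5 (survivin), a subunit of the chromosomal passenger complex, was at 6.30 and 6.75. Centromere proteins taken by name did not share the shift, with 10 of 19 above 0 and a median of 0.02. Cenpf, a kinetochore protein, was at 6.73 and 7.13, and Tpx2, which nucleates spindle microtubules, at 7.94 and 8.34. Mki67, the nuclear protein used as a mark of cycling cells, was at 8.40 and 8.76. Smaller differences were those of Cdk1, the mitotic kinase, at 8.12 and 8.29, and of Aurka, the spindle pole kinase, at 7.49 and 7.64. Cdc20, which activates the anaphase-promoting complex, was at 7.91 and 7.96, a difference well inside the SD of genes at its level.

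In the replication list the subunits of the MCM helicase, which unwinds DNA, were all higher. Mcm2 was at 7.79 and 8.20, Mcm5 at 8.20 and 8.53, and Mcm7 at 7.89 and 8.12. Lig1, which joins Okazaki fragments, was at 7.21 and 7.63. Pcna, the sliding clamp, was at 10.05 and 10.20. The 4 members below 0 were Tyms, Fen1, E2f1 and Orc6, with differences of -0.11, -0.10, -0.04 and -0.01. Among G1 regulators the inhibitor Cdkn1b (p27) was at 7.41 and 7.11, and Ccnd1 (cyclin D1), which growth factors induce in many cells, had a difference of -0.24.

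Division genes were far below the undifferentiated level in both cultures. Relative to the undifferentiated iPS library, which every such value shares, the mitosis list had a median of -2.11 with DMSO, -1.90 with DMSO and NRG-1 and -1.82 with NRG-1 alone. The replication list had medians of -2.20, -1.90 and -1.90 in the same order. Ttk was at 9.26 in the iPS library and 7.44 with NRG-1 alone. The defining pluripotency markers Pou5f1, Nanog, Sox2 and Esrrb averaged 5.69 with DMSO and 5.56 with DMSO and NRG-1, with 2 of 4 above 0 and Sox2 lowest, at -0.65. The longer pluripotency list had 21 of 30 genes above 0 and a median of 0.13, and the part of such cells in the values of division genes was not tested. In a mixed culture, more dividing cells and more of these transcripts in each dividing cell cannot be told apart, and the same holds for every marker below.

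**Figure D2:**
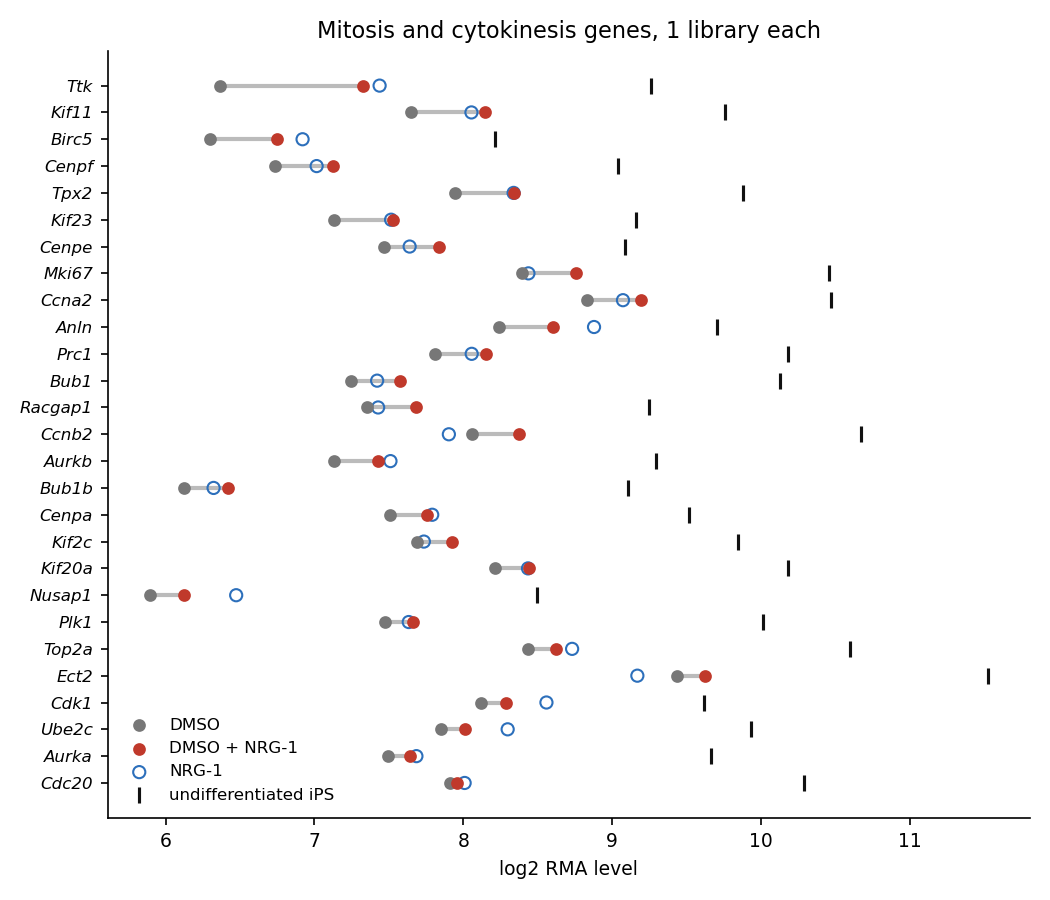
Levels (x axis, log2 RMA) of the 27 measured mitosis and cytokinesis genes, 1 row each, ordered by difference, with grey for DMSO, red for DMSO and NRG-1, open blue for NRG-1 alone and a black tick for undifferentiated iPS cells, 1 library each. Every red point lies to the right of its grey point, Cdc20 by 0.05 and Ttk by 0.96, and every iPS tick lies to the right of both.

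The promoters of the mitosis genes are shown because most hold the letters TTTGAA, which promoters of replication genes mostly lack. Many genes of late cell cycle carry a CHR element, with the letters TTTGAA, which is read by the DREAM and B-MYB complexes, near a CCAAT box bound by NF-Y. Both were searched on both strands in windows from 250 bases before to 50 bases after the start of each gene, as annotated by RefSeq on GRCm38.p6. Windows were at hand for 23 of the 27 measured mitosis genes, in 25 promoters. TTTGAA occurred in 21 of 25 (84%) and CCAAT in 21 of 25, and both in 19 (76%). Over all 20611 promoters of measured genes the shares were 15.4%, 37.7% and 6.15%. Of 28 promoters of replication genes, 3 held TTTGAA and 18 held CCAAT. Mitosis genes whose windows lack TTTGAA were also higher with NRG-1 added, Birc5 by 0.45, Cenpe by 0.37, Bub1 by 0.33 and Nusap1 by 0.23. The 19 mitosis genes that hold it ranged from 0.05 (Cdc20) to 0.96 (Ttk). A link between these letters and the size of the difference was not tested. Within 120 bases before the start, 7 mitosis genes held both, and the 4 of these with the largest differences follow, 5′ to 3′ on the strand of the gene. Capitals mark TTTGAA or its reverse TTCAAA, and CCAAT or its reverse ATTGG. A match describes letters in the window and shows no binding. The windows are Kif11 at chr19:37376262-37376381 (plus strand), Prc1 at chr7:80294356-80294475 (plus), Top2a at chr11:99024190-99024309 (minus) and Ect2 at chr3:27153879-27153998 (minus).
Kif11: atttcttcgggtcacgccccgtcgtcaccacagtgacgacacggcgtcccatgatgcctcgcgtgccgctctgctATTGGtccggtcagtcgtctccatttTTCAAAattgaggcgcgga
Prc1: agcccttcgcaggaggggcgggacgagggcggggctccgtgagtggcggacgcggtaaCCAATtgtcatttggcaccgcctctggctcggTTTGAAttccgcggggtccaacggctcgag
Top2a: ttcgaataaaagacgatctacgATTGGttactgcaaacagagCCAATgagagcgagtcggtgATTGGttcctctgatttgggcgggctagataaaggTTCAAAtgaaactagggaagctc
Ect2: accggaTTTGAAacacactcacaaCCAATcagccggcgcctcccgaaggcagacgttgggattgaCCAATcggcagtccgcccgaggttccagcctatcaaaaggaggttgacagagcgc
The CHR letters start 19 bases before the start in Kif11, 23 in Top2a, 30 in Prc1 and 114 in Ect2. Prc1, which bundles the midzone microtubules, was at 7.81 with DMSO and 8.15 with DMSO and NRG-1. Top2a, the mitotic topoisomerase, was at 8.44 and 8.62, and Ect2, the exchange factor that starts cytokinesis, was at 9.44 and 9.62.

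The ERBB system itself differed little. Of 21 measured receptors, ligands and regulators, 10 were above 0, with a median of -0.02. Erbb2, the shared partner receptor, was at 7.55 with DMSO and 7.48 with DMSO and NRG-1, and Erbb3, which binds NRG-1, at 7.77 and 7.75. Erbb4, the other NRG-1 receptor, was dim in both, at 3.90 and 3.76, below the filter. Egfr, which binds other ligands of the family, was at 10.85 and 10.73. No receptor was apart by as much as the SD per probe set given above. Nrg1 transcript, which the added protein does not supply, was at 8.03 and 8.09. The ligands Tgfa and Ereg, which bind EGFR, stood apart from the rest, at 7.34 and 6.67 for Tgfa and at 8.04 and 7.50 for Ereg, both lower with NRG-1 added. Hbegf, another EGFR ligand, was at 10.84 in both.

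Targets and feedback inhibitors of ERK were mostly lower. Of 19 measured, 3 were above 0, with a median of -0.18 and none past 1.5-fold in either direction. Etv4, an ETS factor induced by ERK, was at 5.79 and 5.32. Dusp6, the phosphatase that inactivates ERK, was at 6.72 and 6.32, and Dusp4, its nuclear relative, at 8.98 and 8.76. Spry4, a feedback inhibitor, went the other way, at 5.62 and 6.03, whereas Spry1 and Spry2 had differences of -0.19 each. Over the whole family of dual specificity phosphatases, 5 of 24 were above 0, with a median of -0.14. Dusp1, Dusp2, Dusp4, Dusp5, Dusp6 and Dusp7 are in both sets, so the counts are not independent. Immediate early genes showed no common direction, with 10 of 21 above 0 and a median of -0.03. Fos was at 9.56 and 9.67, Jun at 11.70 and 11.78, and Egr2 at 6.14 and 6.06. The RNA was taken at 1 time, day 7, so early responses to the ligand are outside what these libraries cover.

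**Figure D3:**
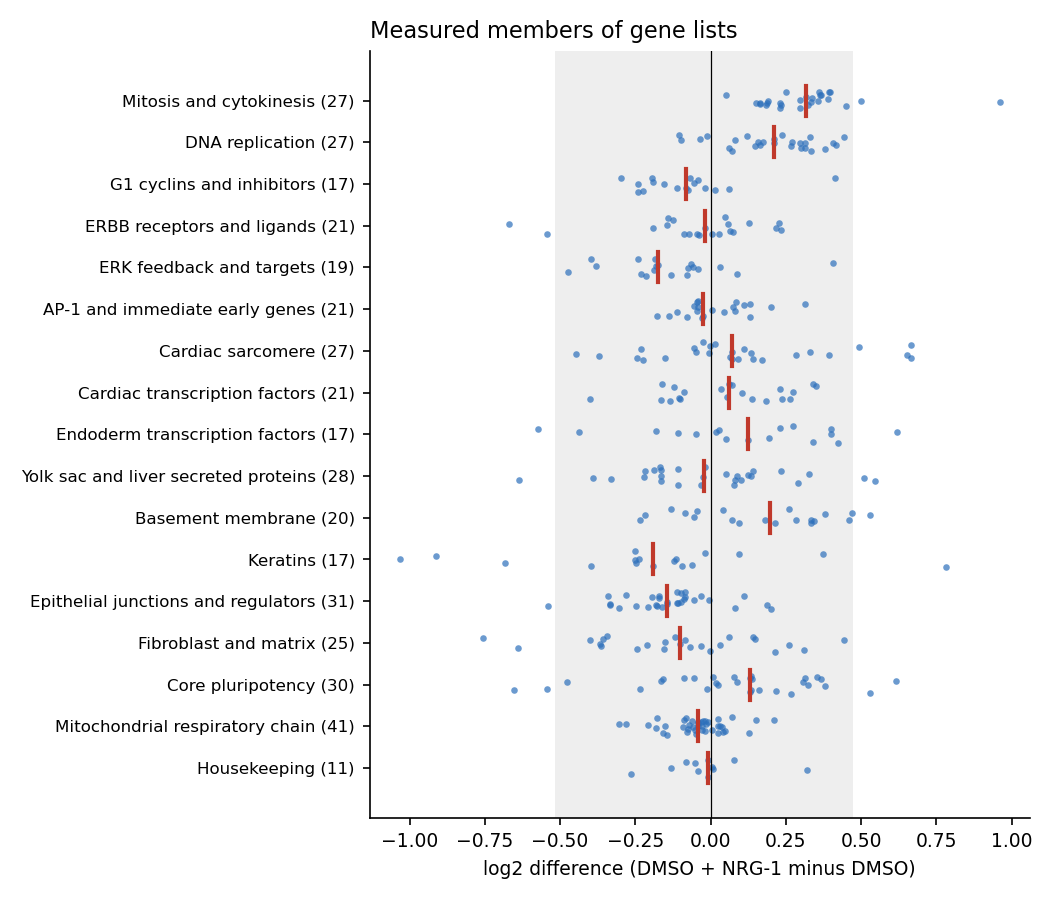
Differences (x axis, log2, DMSO and NRG-1 minus DMSO) of the measured members of 17 gene lists, 1 point per gene and a red bar at the median, with the number of genes in brackets. The grey band holds the central 95% of all genes, from -0.52 to 0.47. Mitosis has its median at 0.32 and keratins at -0.19, and most points of every list lie in the band.

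Heart muscle genes were split. Of 27 measured sarcomere genes 16 were above 0, with a median of 0.07. Over all genes that passed the filter, 0.727% were at least 1.5-fold higher and 0.765% lower. Among the 24 sarcomere genes that passed, 3 were at least 1.5-fold higher and none lower. These were Myh7, the slow myosin heavy chain of the fetal ventricle, at 6.36 and 7.02, Myh7b, its relative, at 5.67 and 6.33, and Myl7, the atrial regulatory light chain, at 6.33 and 6.98. Mybpc3, cardiac myosin-binding protein C, was at 6.35 and 6.84, and Myl4, the atrial essential light chain, at 6.34 and 6.74. Atrial, pacemaker and conduction genes as a list, which includes Myl7 and Myl4, had 6 of 20 above 0 and a median of -0.10. The ventricular light chains went both ways, Myl3 higher, at 7.04 and 7.33, and Myl2 lower, at 5.70 and 5.46. Myl1 was dim in both. The probes for Myh7 and Myh6 can cross-react, since the genes are near copies. Myh6, the fast chain, was at 7.04 and 7.03.

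Thin filament and Z-disc genes pointed both ways. Tnnt2, cardiac troponin T, was at 9.32 in both libraries. Actc1, cardiac actin, was at 8.44 and 8.20. Csrp3, the muscle LIM protein, was at 7.01 and 6.56, and Tcap (telethonin) at 6.17 and 5.80. Myoz2, a Z-disc protein, was higher, at 5.05 and 5.38, as were Actn2, the Z-disc actinin, at 6.87 and 7.00, and Tnnc1, cardiac troponin C, at 7.49 and 7.63. Myoz2 passed the filter only through the library with NRG-1 added, where it was higher. The 6 heart markers Tnnt2, Myl2, Myl3, Actc1, Myh6 and Nkx2-5 averaged 7.38 with DMSO and 7.37 with DMSO and NRG-1, with 2 of 6 above 0. They averaged 5.82 in undifferentiated iPS cells. The heart marker level was thus nearly the same in both cultures.

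Ventricular and trabecular genes had 8 of 13 above 0 and a median of 0.06, which turned to -0.08 over members on no other list. Nppb, the natriuretic peptide of stretched muscle, was lower, at 9.54 and 9.14, and Nppa at 6.97 and 6.66. Hey2, a Notch-regulated repressor of the compact ventricle, was at 6.20 and 6.55. Of 21 cardiac transcription factors 13 were above 0, with a median of 0.06. Gata4 was at 8.82 and 9.16 and Gata6 at 10.48 and 10.75, and both also act in endoderm. Hand1, of the early left ventricle and the extraembryonic mesoderm, was at 7.82 and 7.42. Nkx2-5 was at 6.71 and 6.85, and Tbx5 at 5.52 and 5.42. Of 21 calcium handling and channel genes 11 were above 0, with a median of 0.02. Ryr2, the calcium release channel, was at 7.17 and 7.53, and Slc8a1, the sodium-calcium exchanger, at 5.21 and 5.55, while Atp2a2, the calcium pump, was at 10.77 and 10.79.

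Endoderm factors leaned higher and surface epithelium leaned lower. Of 17 endoderm transcription factors 12 were above 0, with a median of 0.12. Sox17, which specifies endoderm and also marks some endothelium, was at 7.74 and 8.36, past 1.5-fold. The endothelial markers Pecam1, Cdh5 and Tek averaged 6.86 and 7.07, with 3 of 3 above 0. The longer endothelial list, which includes Sox17, had 11 of 20 above 0 and a median of 0.04, and the part of such cells in the Sox17 value was not tested. The leukocyte markers Ptprc, Cd68 and Lyz2 averaged 6.46 and 6.56, but only Cd68, at 11.2 and 11.3, passed the filter. The blood markers Hba-x and Hbb-y were dim in both. Foxa2, the pioneer factor of endoderm, was at 9.12 and 9.35, and Hnf4a, of visceral endoderm and liver, at 6.39 and 6.79. Foxa1 went the other way, at 8.94 and 8.50, as did Pdx1, at 5.62 and 5.05. Pdx1 passed the filter only through the DMSO library, where it was higher. Secreted products of yolk sac and liver had no common direction, with 13 of 28 above 0. Afp was at 10.72 and 10.81, Apoa1 at 9.57 and 9.41 and Rbp4, the retinol carrier, at 10.01 and 9.38. Cubn, the endocytic receptor of visceral endoderm, was at 7.77 and 8.28.

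Genes with bright signal vary least, so differences that pass no fold threshold can still stand far from their neighbours. Among the 1775 genes with a mean level of at least 9, the SD was 0.138. In this group 41 genes (2.31%) were higher by 0.3 or more and 28 (1.58%) lower by as much. The level of 9 and the limit of 0.3 were chosen after the values were seen, as were the bright genes named here. The largest was Epas1 (HIF-2 alpha), a hypoxia factor, with a difference of 0.63. Fst (follistatin), which binds activin, was at 11.02 and 11.52. Lifr, the LIF receptor subunit, was at 10.17 and 10.63. At the other end were Dcn (decorin), a matrix proteoglycan, at 9.71 and 8.96, and Osr1, a factor of intermediate mesoderm, at 10.43 and 9.76. Ahr, the aryl hydrocarbon receptor, was at 9.39 and 8.82.

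Several of the bright genes that were higher encode basement membrane, the sheet under epithelia that early endoderm lays down in large amounts. Lama1, Lamb1 and Lamc1 form laminin-111. Lama1 was at 11.69 and 12.16, Lamb1 at 11.99 and 12.32 and Lamc1 at 11.94 and 12.32. Col4a1 and Col4a2, the chains of the common type IV collagen, are divergent neighbours with 1 shared promoter region, and were at 11.04 and 11.39 and at 10.58 and 11.04. Nid2 (nidogen 2), which links laminin to collagen, was at 9.39 and 9.92. Over a list of laminins, type IV collagens, nidogens, perlecan and agrin, chosen after these values were seen, 14 of 20 measured genes were above 0, with a median of 0.20. All 8 with a mean level of at least 9 were above 0. The laminin chains of skin and other stratified epithelia were lower, Lama3 at 7.41 and 7.17 and Lamb3 at 6.41 and 6.19. With NRG-1 alone Col4a1 was at 11.87 and Lama3 at 6.59. Beside this, the endoderm markers Afp, Ttr, Apoa1 and Sox17 averaged 9.51 and 9.60, with 2 of 4 above 0, and their part in the basement membrane values was not tested.

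**Figure D4:**
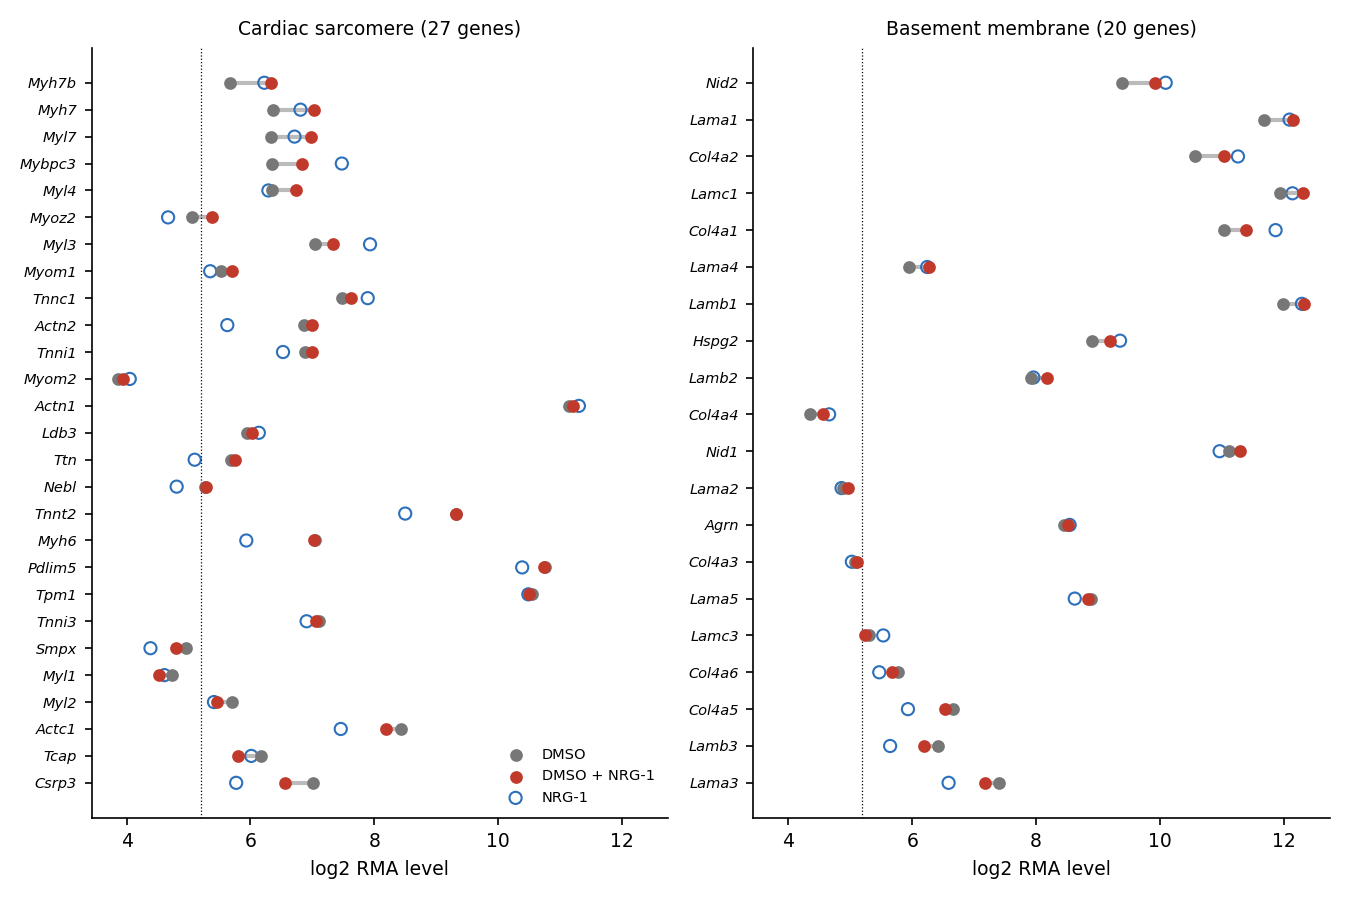
Levels (x axis, log2 RMA) of 27 sarcomere genes and of 20 basement membrane genes, ordered by difference, with grey for DMSO, red for DMSO and NRG-1 and open blue for NRG-1 alone, 1 library each, and a dotted line at the filter of 5.20. Myh7b, Myh7 and Myl7 head the sarcomere genes and Csrp3 is at their foot, and the laminin-111 chains Lama1, Lamb1 and Lamc1 lie above 11.6 in both libraries.

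Several keratins were lower. Of 17 measured keratins on the list 3 were above 0, with a median of -0.19. Among the 16 that passed the filter, 3 were at least 1.5-fold lower and none higher. The shares over all genes that passed were 0.765% lower and 0.727% higher. Over all 53 keratin genes by name, 19 were above 0 and the median was -0.10. Krt17, a keratin of activated and basal epithelium, was at 7.52 with DMSO, 6.48 with DMSO and NRG-1 and 6.60 with NRG-1 alone. Krt4, of the moist lining of the oesophagus, was at 8.11, 7.19 and 5.65 in the same order. Krt15, a basal keratin, was at 9.33, 8.64 and 8.61. The keratins of simple epithelium were closer, with Krt8 at 11.83 and 11.77 and Krt18 at 11.95 and 11.85. Krt16 was higher, at 5.88 and 6.26, and Krt6b was higher by 0.78 but dim in both libraries.

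Cell junctions and their regulators were slightly lower, with 4 of 31 above 0, a median of -0.14 and none past 1.5-fold. Cldn7, a tight junction claudin, was at 8.81 and 8.27. Cdh1 (E-cadherin) was at 9.94 and 9.73, and Grhl3, a regulator of surface epithelium, at 7.46 and 7.12. Cldn6, a claudin of embryonic epithelium, was higher, at 10.13 and 10.33. Over 23 claudins by name 12 were above 0, so the lower values were not shared by the whole family. The 5 epithelial markers Krt8, Krt18, Krt19, Epcam and Cdh1 were all lower, by 0.06 to 0.25, and averaged 10.9 and 10.8. They share members with the lists above, and their part in the keratin values was not tested.

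Of 21 genes of bladder and stomach lining, 5 were above 0, with a median of -0.11. Upk1b (uroplakin 1B), a plaque protein of bladder, was at 10.12 and 9.75 and Vsig1, of the stomach, at 5.23 and 4.50. Vsig1 passed the filter only through the DMSO library, where it was higher. The gastrokines Gkn2 and Gkn1, secreted by stomach surface cells, were higher, Gkn2 at 11.26 and 11.82 and Gkn1 at 9.72 and 10.04. Anxa10 was also higher, by 0.37, but dim in both libraries. Chemokines were above 0 in 5 of 20, with Cxcl15, an epithelial chemokine of the lung, at 7.48 and 6.54. Fibroblast and matrix genes were above 0 in 8 of 25, with a median of -0.10. Lum (lumican), a collagen-binding proteoglycan like decorin, was at 7.67 and 7.03, while Pdgfra was at 10.43 and 10.69 and Postn at 9.36 and 9.50. The fibroblast markers Col1a1, Col3a1, Dcn and Pdgfra averaged 10.2 and 9.96, with 1 of 4 above 0.

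Of the 30 measured pluripotency genes 21 were above 0, and 14 did not pass the filter in these libraries. The list leaned higher, with single members on either side. Sox2 was lower, at 7.89 with DMSO and 7.24 with DMSO and NRG-1, against 11.49 in iPS cells. Tdgf1 (Cripto), the Nodal co-receptor, was at 6.57 and 6.02. Fbxo15 was higher, at 7.08 and 7.61, and Dnmt3b, a DNA methyltransferase, at 5.93 and 6.28. Nanog was dim in both, at 4.55 and 4.39. Klf4 and Klf5, which epithelia also express, were above their iPS levels of 8.42 and 10.29 in both cultures, Klf4 at 9.88 and 10.19 and Klf5 at 10.86 and 10.81. Relative to the iPS library the list had a median of -3.23 with DMSO and -3.16 with DMSO and NRG-1.

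The single genes with the largest differences were mostly of low signal. Zfp97, a zinc finger gene with near copies, was at 4.64 and 6.25, the largest difference among genes that passed the filter. Prl2a1, a placental hormone gene of the prolactin family, was at 5.40 and 6.58. Cyp4f37 and Serpinb9d, at 4.10 and 5.22 and at 4.16 and 5.25, also belong to clusters of similar genes, where probes may read several copies. On the lower side Txlng was at 6.55 and 5.45, Lilrb4a, a receptor of leukocytes, at 6.12 and 5.03, and Lpar4, a receptor for lysophosphatidic acid, at 6.10 and 5.04. Speer4cos, at 5.82 and 4.64, is a member of a repeated family. Other zinc finger genes among the 15 largest were Zfp229, at 6.77 and 7.61, and Zfp994, at 4.50 and 5.31. Over the 370 zinc finger genes named Zfp, 198 were above 0, and the family median was 0.02. Of the 269 that passed the filter, 6 were at least 1.5-fold higher and 1 lower, against 0.727% and 0.765% of all genes that passed. Gucy1a1, a subunit of the nitric oxide receptor, was at 6.12 and 5.24, and Tspan1, an epithelial tetraspanin, at 5.85 and 4.99. Zfp97, Cyp4f37, Serpinb9d and Zfp994 passed the filter only through the library with NRG-1 added. Speer4cos, Lilrb4a, Lpar4 and Tspan1 passed only through the DMSO library. The direction of those genes was thus fixed by the filter.

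**Figure D5:**
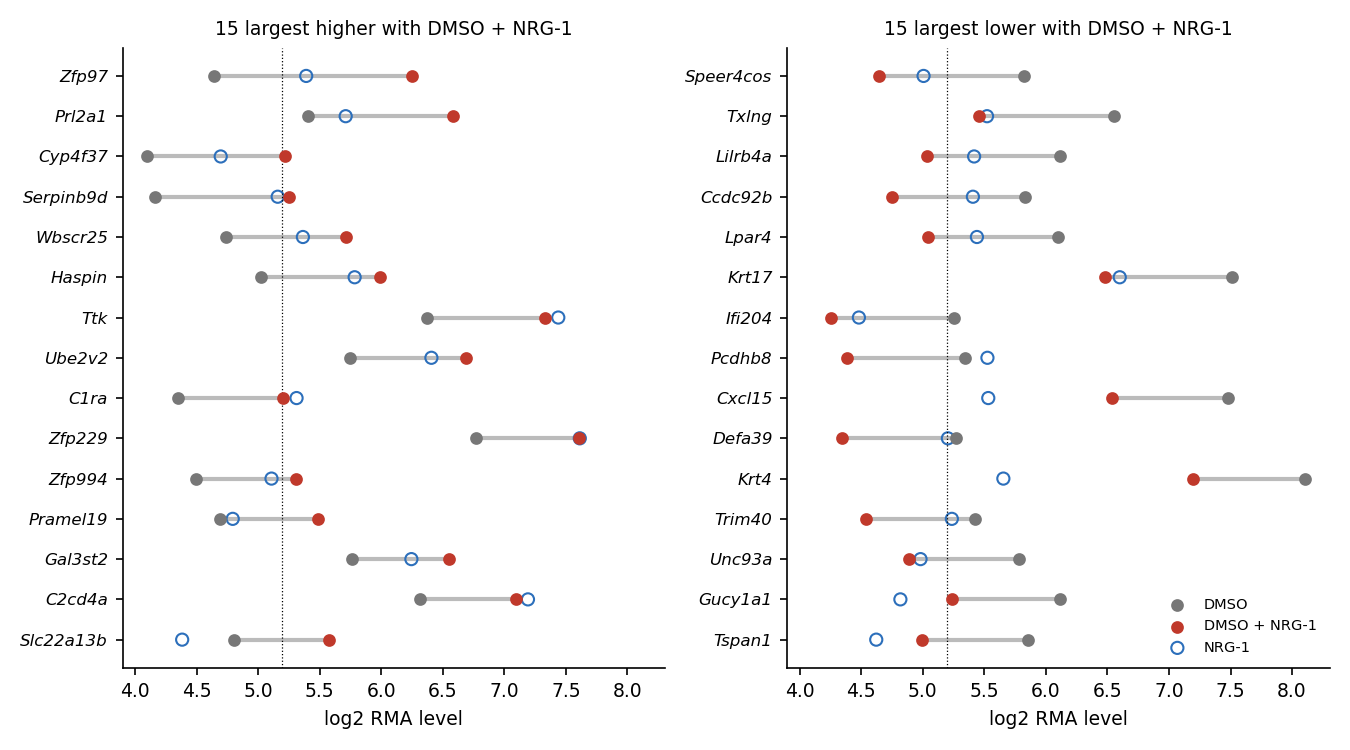
Levels (x axis, log2 RMA) of the 15 genes with the largest difference each way among named genes that passed the filter, with grey for DMSO, red for DMSO and NRG-1 and open blue for NRG-1 alone, 1 library each, and a dotted line at the filter of 5.20. Many pairs straddle the filter, as Zfp97 does at 4.64 and 6.25, while Ttk, Krt17 and Krt4 lie above it in both libraries.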

How the data were processed

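The deposited table gives a log2 value for each of 41345 probe sets. Per the submitters' processing notes, the authors used RMA, and neither its version nor a genome build is given in the sources used here. RMA gives all arrays nearly the same distribution, and the sorted values of the DMSO library and the library with DMSO and NRG-1 differed by at most 0.0996, so a change of all genes together cannot be seen. Probe sets with 1 gene symbol in the platform annotation (23521) were averaged per gene into 22180 genes, and 16010 probe sets that it does not list are unnamed here. The table gives no detection values, and precision is limited by how few arrays there are. With 1 array a side, differences were taken gene by gene with no test. The filter was a level of at least 5.20 in either library. There were 57 gene lists (1134 of 1215 entries measured) and 38 families defined by name. The members and lists were chosen with earlier results of these data known. Named were the 15 largest differences each way, leaving out predicted, clone, small RNA, olfactory, vomeronasal and histone names, up to 5 of the largest of each list, and any ERBB, ERK, AP-1, cardiac or pluripotency member; further examples were picked with their values in view. The alternatives tried were no filter, a filter at 6.93, the brightest probe set, cyclic loess and a housekeeping shift. Promoters and miRNAs are RefSeq's, on GRCm38.p6. The counting steps were tested on simulated data. Python 3.11.15, numpy 2.4.6, pandas 2.3.3, R 4.3.3 and limma 3.58.1 were used.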

Additional observations from a re-analysis of the deposited data

How the results depend on the processing

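Counts by fold depended on the filter. The number of genes at least 1.5-fold higher was 275 with no filter and 22 with the filter at 6.93, and that of genes at least 1.5-fold lower was 356 and 28. Likewise, genes at least 2-fold higher numbered 22 and 0, and genes at least 2-fold lower numbered 28 and 1. With the brightest probe set, cyclic loess or the housekeeping shift these 4 counts stayed within 1.5 times of their values. The housekeeping shift was a constant of 0.0039, so it could not move any median by 0.1. The brightest probe set could change only the 1082 of 22180 genes with several probe sets. No list median past 0.1 changed sign under any alternative run. Of 95 list and family medians, 4 moved by over 0.1 when only members that passed the filter were used, 1 with the brightest probe set and none with cyclic loess or the housekeeping shift; of 57 lists, 2 moved over members on no other list, an alternative added after seeing the data. Of 1080 named genes, 17 moved with the brightest probe set and none with the other scalings. The mitosis list kept 27 of 27 genes above 0 under the brightest probe set, cyclic loess and the housekeeping shift, with medians of 0.30 to 0.32. The basement membrane list kept 14 of 20 under cyclic loess and the housekeeping shift. The housekeeping shift was smaller than every difference in both lists, so it could change neither count. No paired analysis was possible because each group has 1 library. The SD of differences was 0.306 below a level of 4 and 0.132 at 10 or above, so dim genes were read less precisely.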

Other observations

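MicroRNA precursors of the let-7 family were singled out after their values were seen. The let-7 microRNAs accumulate as cells differentiate and are held back by LIN28 proteins in pluripotent cells. Of 11 let-7 genes on the array 6 were above 0 and 5 below. The 3 that passed the filter were higher with NRG-1 added, Mirlet7d at 4.96 and 5.86, Mirlet7a-1 at 5.96 and 6.52, and Mirlet7i at 5.14 and 5.68. Mirlet7d and Mirlet7i passed only through the library where they were higher, so their direction was fixed by the filter. The dim members had differences from -0.38 to 0.37. Among all 483 microRNA genes 243 were above 0. The 156 that passed the filter had an SD of 0.324 and a central 95% from -0.38 to 0.81. Of these 156, 10 were at least 1.5-fold higher and 2 lower, against 0.727% and 0.765% of all genes that passed. These arrays read primary or precursor transcripts rather than the mature forms. Lin28a was at 6.29 and 6.37, and Lin28b was dim in both. The mature sequences of the 3 are given because they share 1 seed, bases 2 to 8, shown in capitals, as do all 10 let-7 genes whose mature form was matched in RefSeq (GRCm38.p6).
let-7d-5p: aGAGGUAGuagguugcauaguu
let-7a-5p: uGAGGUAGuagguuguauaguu
let-7i-5p: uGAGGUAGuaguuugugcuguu

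Among metabolic genes, Scd1, the stearoyl-CoA desaturase, was at 7.92 with DMSO and 8.54 with DMSO and NRG-1. Insig1, which holds sterol regulators in the endoplasmic reticulum, was at 10.88 and 11.27, and 13 of 17 cholesterol synthesis genes were above 0, with a median of 0.09. Ppargc1a, a coactivator of mitochondrial genes, was lower, at 7.22 and 6.42, and the respiratory chain had 12 of 41 genes above 0, with a median of -0.04. Aldoc, the brain-type aldolase, was at 8.28 and 7.60. Glutathione transferases by name were above 0 in 2 of 17, with a median of -0.19, Gsta4 being at 10.27 and 9.85. Of 24 measured genes of the interferon response list 8 were above 0. Its lower members included Ifit1 at 7.38 and 6.84, Isg15 at 6.14 and 5.66 and Usp18 at 9.69 and 9.27. Over 63 interferon-induced genes by name, 27 were above 0, with a median of -0.055. The cause of these values was not tested.

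Among probe sets without a single gene name, 7902 passed the filter, of which 654 (8.28%) were at least 1.5-fold higher and 449 (5.68%) at least 1.5-fold lower, against 0.727% and 0.765% of named genes. They are not analysed further here.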
